A study of Homo sapiens with 6 samples.

Results

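Entry into and passage through mitosis were followed at the RNA level in 50 genes that act in G2 and M phase: the transcription factors FOXM1 and MYBL2, the cyclins and CDK1, mitotic kinases, the spindle checkpoint, kinetochores, kinesins, the spindle, cytokinesis and the exit from mitosis. The members were taken by gene symbol from a deposited table of 20111 genes, where all 50 were found. The cells were MDA-MB-231, a widely used human cell line from a triple-negative breast cancer, that is, one without oestrogen receptor, progesterone receptor or HER2 amplification. They received siControl (a control siRNA), siNCOA3 (against the nuclear receptor coactivator NCOA3) or siSHC1 (against the signalling adaptor SHC1) by transfection and were collected 24 h or 48 h later. Each siRNA and time has 1 library, 6 in all, so the 2 times stand in for replicates of an siRNA. The labels do not say that the libraries came from separate cultures, so the spread behind the p-values may be technical. That spread is what remains among the 6 libraries after terms for siRNA and time. It also holds any difference between siRNAs in how a gene changed with time. The sources used here do not give the siRNA sequences, or say whether each was a single siRNA or a pool.

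Genes of G2 and M phase are switched on late in the cell cycle and are silent in resting cells. In resting cells the DREAM complex, built on the MuvB core, holds their promoters off, and in cycling cells MuvB is joined first by MYBL2 (B-MYB) and then by FOXM1, a forkhead factor that drives their peak. MuvB contacts a short promoter sequence, the cell cycle genes homology region (CHR), which often lies a little downstream of CCAAT boxes bound by NF-Y. FOXM1 and its targets are prominent in triple-negative breast cancer, where fast division is common.

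Values are FPKM, fragments per kilobase of transcript per M mapped fragments, which are length-corrected and can be compared between genes. Total FPKM ran from 495518 to 553073 per library, and between 14796 and 15221 genes per library were above 0. The targeted transcripts matched the labels: SHC1 was at 103 and 119 FPKM with siControl and 14.7 and 15.5 FPKM with siSHC1, and NCOA3 was at 10.3 and 11.4 FPKM with siControl and 1.72 and 1.85 FPKM with siNCOA3. The line's mesenchymal markers were high (VIM 887 to 1020 FPKM, CD44 473 to 596, AXL 362 to 440), PGR was listed at 0, ESR1 reached at most 0.0922 FPKM, and ERBB2 (HER2) ran from 26.9 to 35.5 FPKM. Among markers of other cell types, PTPRC (leukocytes) reached at most 0.0549 FPKM and CDH1 (epithelium) at most 0.572 FPKM, while EPCAM (epithelium) ran from 6.65 to 10.7 FPKM and COL1A1 (fibroblasts) from 2.16 to 7.47 FPKM.

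All 50 members passed the filter on low values, at least 1 FPKM in at least 2 libraries. Their mean levels with siControl had a median of 43.6 FPKM, with 7 members at 100 FPKM or more and 4 under 10. The highest were CCNB1 (cyclin B1, the activator of CDK1 at mitotic entry; 180 FPKM), UBE2C (the ubiquitin-conjugating enzyme of the anaphase-promoting complex, APC/C; 175 FPKM) and ANLN (anillin, a scaffold of the cytokinetic ring; 161 FPKM). The lowest were HMMR (a spindle-associated hyaluronan receptor; 3.53 FPKM), MAD2L1 (MAD2, the checkpoint protein that restrains CDC20; 9.0 FPKM) and CDC25C (a phosphatase that activates CDK1; 9.18 FPKM). FOXM1 itself had 60.9 FPKM at 24 h and 69.2 FPKM at 48 h with siControl.

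The members share promoter letters that the choice by name did not use. RefSeq promoter windows, from 250 bases before to 50 bases after the start site on GRCh38.p14, were at hand for 42 members; FOXM1, RACGAP1, BIRC5, AURKA, UBE2C, TPX2, BUB3 and TTK were not among them. A CHR (TTTGAA or TTTAAA on either strand) was present in 34 of the 42 members (81%), against 15.1% of the 9479 tested genes with a window and 24.3% of 27305 windows in all. CCAAT, on either strand, was present in 32 members (76.2%), against 36.8% of tested genes and 35.7% of all windows. The forkhead letters TAAACA were in 4 members (9.52%), against 6.49% and 12.4%, and the E2F letters GCGGGAA were also in 4 (9.52%), against 10.5% and 6.56%, both on either strand. The CHR and CCAAT matches can share letters, as in CDCA8 and MKI67. In 24 members a CHR began within the 70 bases before the start site. These are matches of the letters named, in a single window per gene, given as a description. Other letters and other start sites were not searched.

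The 120 bases before the start site are shown for PRC1 and CENPF, which passed the test after siSHC1 and hold both elements. Also shown are CCNB1, CCNB2, PLK1 and CDC20, mitotic genes with both elements that did not pass it, and MYBL2 and CDC25B. MYBL2 and CDC25B passed it, with no match to either element in their windows. Each is written 5′ to 3′ along the gene's own strand, with CHR and CCAAT letters of either strand in capitals.
PRC1 (chr15:90994536-90994655, minus strand): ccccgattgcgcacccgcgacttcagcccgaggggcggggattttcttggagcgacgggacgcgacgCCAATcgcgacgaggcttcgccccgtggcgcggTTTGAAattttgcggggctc
CCNB1 (chr5:69167030-69167149, plus strand): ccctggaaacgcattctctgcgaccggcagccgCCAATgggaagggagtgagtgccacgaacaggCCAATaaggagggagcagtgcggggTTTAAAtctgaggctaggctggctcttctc
CCNB2 (chr15:59105026-59105145, plus strand): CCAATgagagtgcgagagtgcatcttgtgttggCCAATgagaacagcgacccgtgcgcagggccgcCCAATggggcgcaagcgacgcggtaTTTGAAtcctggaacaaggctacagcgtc
PLK1 (chr16:23678769-23678888, plus strand): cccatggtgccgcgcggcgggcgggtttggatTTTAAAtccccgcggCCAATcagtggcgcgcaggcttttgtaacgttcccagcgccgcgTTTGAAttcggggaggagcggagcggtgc
CDC20 (chr1:43358861-43358980, plus strand): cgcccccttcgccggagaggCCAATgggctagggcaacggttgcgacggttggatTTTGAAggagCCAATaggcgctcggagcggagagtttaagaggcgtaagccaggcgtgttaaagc
CENPF (chr1:214603075-214603194, plus strand): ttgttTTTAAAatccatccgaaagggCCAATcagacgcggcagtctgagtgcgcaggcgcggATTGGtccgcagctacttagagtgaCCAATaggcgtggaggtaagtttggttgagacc
MYBL2 (chr20:43666994-43667113, plus strand): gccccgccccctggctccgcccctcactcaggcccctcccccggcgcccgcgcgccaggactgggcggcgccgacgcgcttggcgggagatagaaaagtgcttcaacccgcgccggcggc
CDC25B (chr20:3786831-3786950, plus strand): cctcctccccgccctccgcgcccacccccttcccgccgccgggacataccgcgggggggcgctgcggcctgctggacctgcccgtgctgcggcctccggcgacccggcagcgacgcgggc
In the 120 bases shown, CCNB1 and CCNB2 have CCAAT boxes ahead of a CHR whose first base lies at position -30 and -29 from the start site; CCNB2 has another CHR at -193, outside them. PRC1 has 1 CCAAT box at -53 and a CHR at -20. In CENPF the CHR at -115 lies ahead of the CCAAT boxes and a further CHR lies at 41, past the start site and outside the bases shown.

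**Figure D1:**
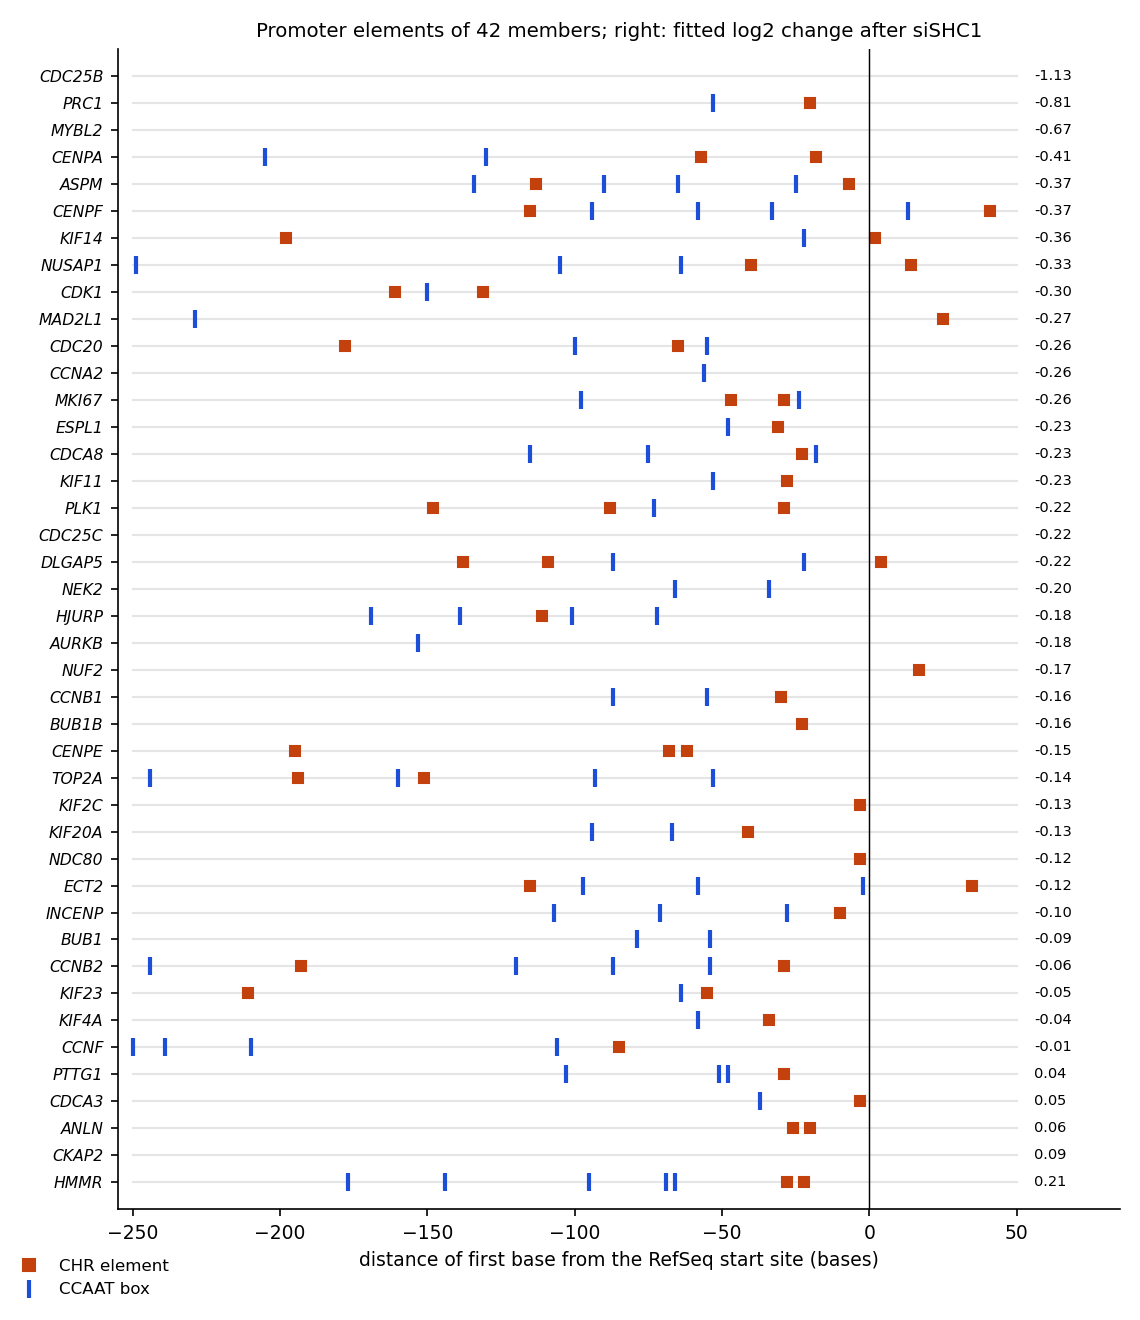
Place of CHR elements (squares) and CCAAT boxes (bars) in the RefSeq promoter windows of 42 members, as the distance in bases of the first letter from the start site, with members ordered by their fitted log2 change after siSHC1, printed on the right. Members with a CHR range from PRC1 (-0.81) to HMMR (0.21), and CDC25B, with the lowest change (-1.13), has none in its window.

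Setting siSHC1 against siControl addresses which transcripts changed when SHC1 was lowered. FOXM1, CDC25B, RACGAP1, PRC1, MYBL2 and CENPF fell, and no member rose. That is 6 of 50 members lower (12%), where 3.32% of the 11690 tested genes were lower and 3.11% higher at an adjusted p under 0.05 (limma, Benjamini-Hochberg over all tested genes). These 6 code for both transcription factors of the set, a CDK1 activator, 2 proteins of the spindle midzone and a kinetochore protein. Most other members lay slightly below siControl without passing the test. In these whole-culture libraries, fewer cells in G2 and M phase and less RNA per cell cannot be told apart.

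FOXM1, a forkhead factor of G2 and M phase genes, had 60.9 and 69.2 FPKM with siControl at 24 h and 48 h. It had 63.6 and 65.8 FPKM with siNCOA3, and 28.2 and 30.8 FPKM with siSHC1. Both siSHC1 libraries lay below the other 4, at 43.4% and 45.2% of siControl after scaling. The fitted change in log2(scaled FPKM + 1) was -1.15 ± 0.08 (SE from the moderated fit to all 6 libraries, limma adjusted p = 0.00191). Whether other members changed through FOXM1 was not tested.

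MYBL2, which precedes FOXM1 on MuvB-bound promoters, had 29.5 and 33.2 FPKM with siControl, 41.9 and 36.8 FPKM with siNCOA3, and 21.3 and 18.3 FPKM with siSHC1. The siRNAs did not overlap, with siNCOA3 highest and siSHC1 lowest at both times. After siSHC1 it stood at 67.5% and 56.2% of siControl, a fitted change of -0.67 ± 0.10 (SE, limma adjusted p = 0.0168).

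CDC25B, a phosphatase that starts CDK1 activation at the G2/M boundary, had 48.6 and 53.4 FPKM with siControl, 56.6 and 57.7 FPKM with siNCOA3, and 21.9 and 24.7 FPKM with siSHC1. Its fall after siSHC1 was as large as that of FOXM1, to 42.2% and 47% of siControl (-1.13 ± 0.08, SE, limma adjusted p = 0.00202). RACGAP1, the subunit of centralspindlin that works with the guanine exchange factor ECT2 to place the cleavage furrow, had 59.6 and 74.9 FPKM with siControl, 67.3 and 72.5 FPKM with siNCOA3, and 35.1 and 37.0 FPKM with siSHC1 (-0.91 ± 0.08, SE, limma adjusted p = 0.00384). PRC1, which bundles the antiparallel microtubules of the spindle midzone, had 111 and 119 FPKM with siControl, 101 and 116 FPKM with siNCOA3, and 71.8 and 61.9 FPKM with siSHC1 (-0.81 ± 0.11, SE, limma adjusted p = 0.0124). For all 3 genes both siSHC1 libraries lay well below the other 4. CENPF, a large kinetochore and nuclear matrix protein of G2 and M phase, showed a smaller difference: 47.8 and 46.7 FPKM with siControl, 48.7 and 46.6 FPKM with siNCOA3, and 38.6 and 35.8 FPKM with siSHC1 (-0.37 ± 0.08, SE, limma adjusted p = 0.0441).

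The calls for FOXM1, CDC25B and RACGAP1 held when any 1 library was left out. Without the siControl library of 24 h or that of 48 h only these 3 members passed, with limma adjusted p of 0.0543 and 0.0903 for MYBL2, 0.0906 and 0.079 for PRC1, and 0.215 and 0.146 for CENPF. MYBL2 also missed the threshold without the siSHC1 library of 48 h (0.0622). CENPF missed it without any 1 of the 6 libraries, its adjusted p then being 0.0534 to 0.215. No member passed when genes of all levels entered the test, where 2 of 16511 genes were lower and 0 higher.

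**Figure D2:**
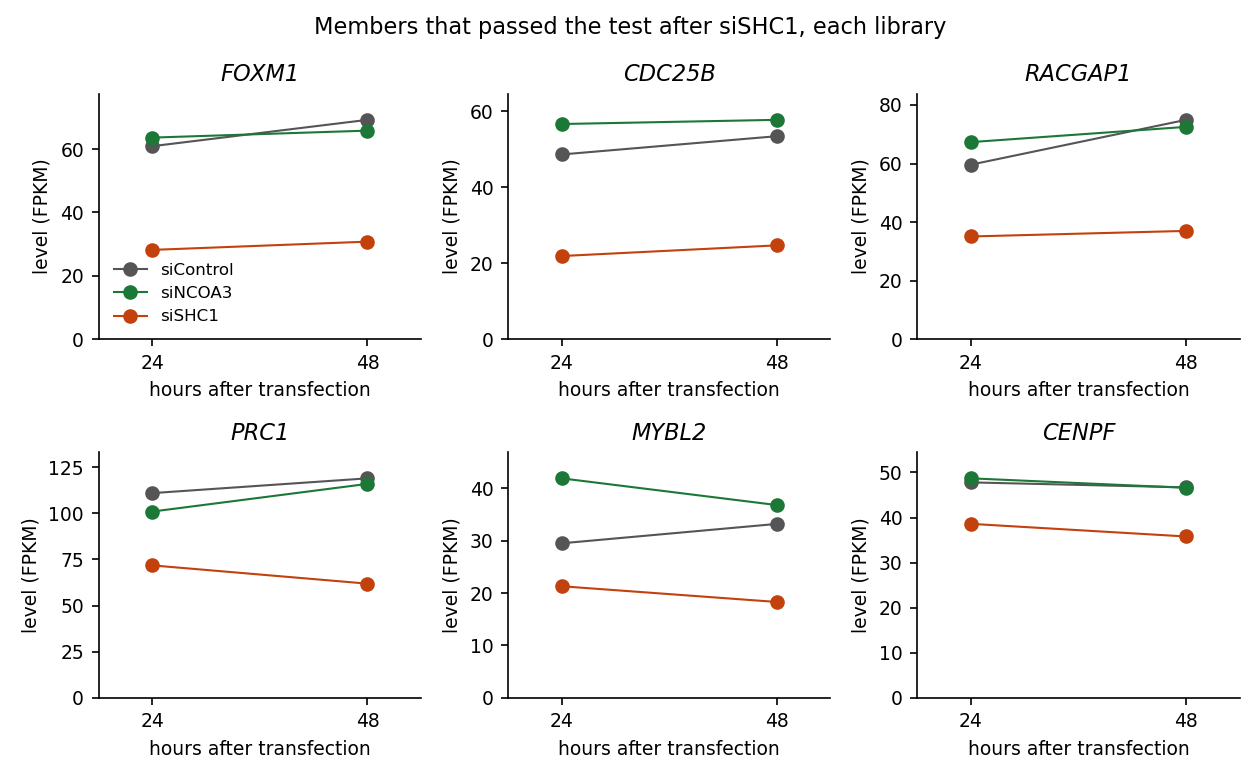
Level in FPKM, on axes that start at 0, of the 6 members that passed the test after siSHC1, by hours after transfection; each point is 1 library and lines join the 2 times of an siRNA. For FOXM1 the siSHC1 libraries are at 28.2 and 30.8 FPKM and the other 4 between 60.9 and 69.2.

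The shift of the whole set was small beside the falls of the leading members. After siSHC1, 43 of 50 members had a fitted change below 0, against 49.3% of all tested genes; the number was 41 without scaling and 47 with equal library totals. The members' median change was -0.17 (-0.20 at 24 h and -0.16 at 48 h), where the median over all tested genes was 0.00. In 30 members (60%) both siSHC1 libraries lay below both siControl libraries after scaling, where this held for 23.9% of tested genes. In 2 members, HMMR and CDCA3, both lay above, where this held for 24.1%. At an unadjusted p under 0.05 there were 21 members (42%), against 26.3% of tested genes. Without the 6 that passed, the remaining 44 members had a median of -0.16, a range from -0.41 (CENPA) to 0.21 (HMMR), and 37 below 0. Only 5 members, all among the 6, moved by more than 0.5.

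**Figure D3:**
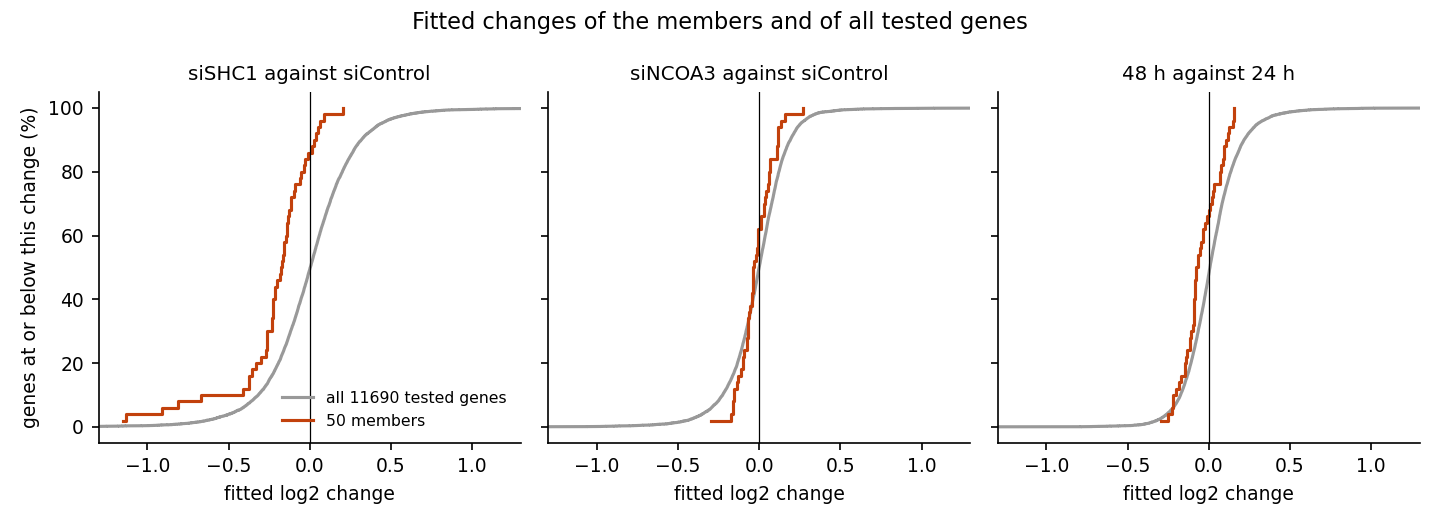
Share of genes (%) at or below each fitted log2 change, for the 50 members (orange steps) and all 11690 tested genes (grey), in 3 comparisons. After siSHC1 the members' curve lies to the left of the grey one, with a median of -0.17 and a tail down to -1.15, while after siNCOA3 and over time it stays within -0.30 and 0.27.

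By function, the 7 cyclins, CDK1 and its phosphatases all had fitted changes below 0 after siSHC1, but only CDC25B passed. CDK1, the mitotic kinase itself, had 73.2 and 67.8 FPKM with siControl and 62.0 and 55.1 FPKM with siSHC1 (-0.30 ± 0.08, limma adjusted p = 0.0654). Cyclin A2 (CCNA2) was at -0.26, cyclin B1 (CCNB1) at -0.16 and CDC25C at -0.22. Cyclin B2 (CCNB2) and cyclin F (CCNF), a ubiquitin ligase subunit, were at -0.06 and -0.01. The 2 CDC25 phosphatases of the set therefore stood far apart, CDC25B at 42.2% and 47% of siControl and CDC25C at 86.5% and 81.6%.

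The 3 mitotic kinases, PLK1, which drives entry and spindle assembly, NEK2, which splits centrosomes, and AURKA, which matures them, did not pass. PLK1 had 50 and 54.7 FPKM with siControl and 44.2 and 47.9 FPKM with siSHC1 (-0.22 ± 0.08), while AURKA was at -0.03 ± 0.09. The 5 spindle checkpoint genes were all below 0 and none passed, from MAD2L1 at -0.27 ± 0.12 to the kinase BUB1 at -0.09 ± 0.09. MAD2L1 was at 71.7% of siControl at 24 h and 91.9% at 48 h.

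Of the 6 kinetochore and centromere genes all were below 0 and only CENPF passed. CENPA, the histone H3 variant that marks centromeres, had 19.1 and 18.5 FPKM with siControl and 15.7 and 13.0 FPKM with siSHC1, and missed the threshold narrowly (-0.41 ± 0.09, limma adjusted p = 0.0505). The outer kinetochore subunit NDC80 was at -0.12. In the chromosomal passenger complex, which corrects microtubule attachments, CDCA8 (borealin) was at -0.23, its kinase AURKB at -0.18, its scaffold INCENP at -0.10 and BIRC5 (survivin) at 0.03, and none passed. INCENP and BIRC5 were on opposite sides of siControl at the 2 times.

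The 6 kinesins were all below 0 and none passed, from KIF14, a cytokinesis motor, at -0.36 ± 0.10 (limma adjusted p = 0.0839) to the chromokinesin KIF4A at -0.04 ± 0.08. Among the 6 spindle proteins ASPM, a spindle pole protein, was at -0.37 ± 0.10 (limma adjusted p = 0.0712), NUSAP1, which bundles spindle microtubules, at -0.33 ± 0.08 (limma adjusted p = 0.0601) and HMMR at 0.21 ± 0.11. HMMR had 3.46 and 3.60 FPKM with siControl, 4.09 and 4.13 FPKM with siNCOA3, and 4.39 and 4.26 FPKM with siSHC1. It thus lay above siControl after both siRNAs, and passed for neither.

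The 4 midzone and cytokinesis genes split evenly. RACGAP1 and PRC1 fell, while ECT2, the exchange factor that RACGAP1 recruits, was at -0.12 ± 0.08 and ANLN at 0.06 ± 0.06, with 160 and 163 FPKM with siControl against 179 and 167 FPKM with siSHC1. Among the 5 members grouped around the APC/C, its activator CDC20 was at -0.26 ± 0.08 (limma adjusted p = 0.103) and separase (ESPL1) at -0.23 ± 0.10. UBE2C, securin (PTTG1) and CDCA3 lay between 0.01 and 0.05. The proliferation marker MKI67 was at -0.26 ± 0.08 (limma adjusted p = 0.0902) and topoisomerase II alpha (TOP2A), which untangles sister chromatids, at -0.14 ± 0.07.

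**Figure D4:**
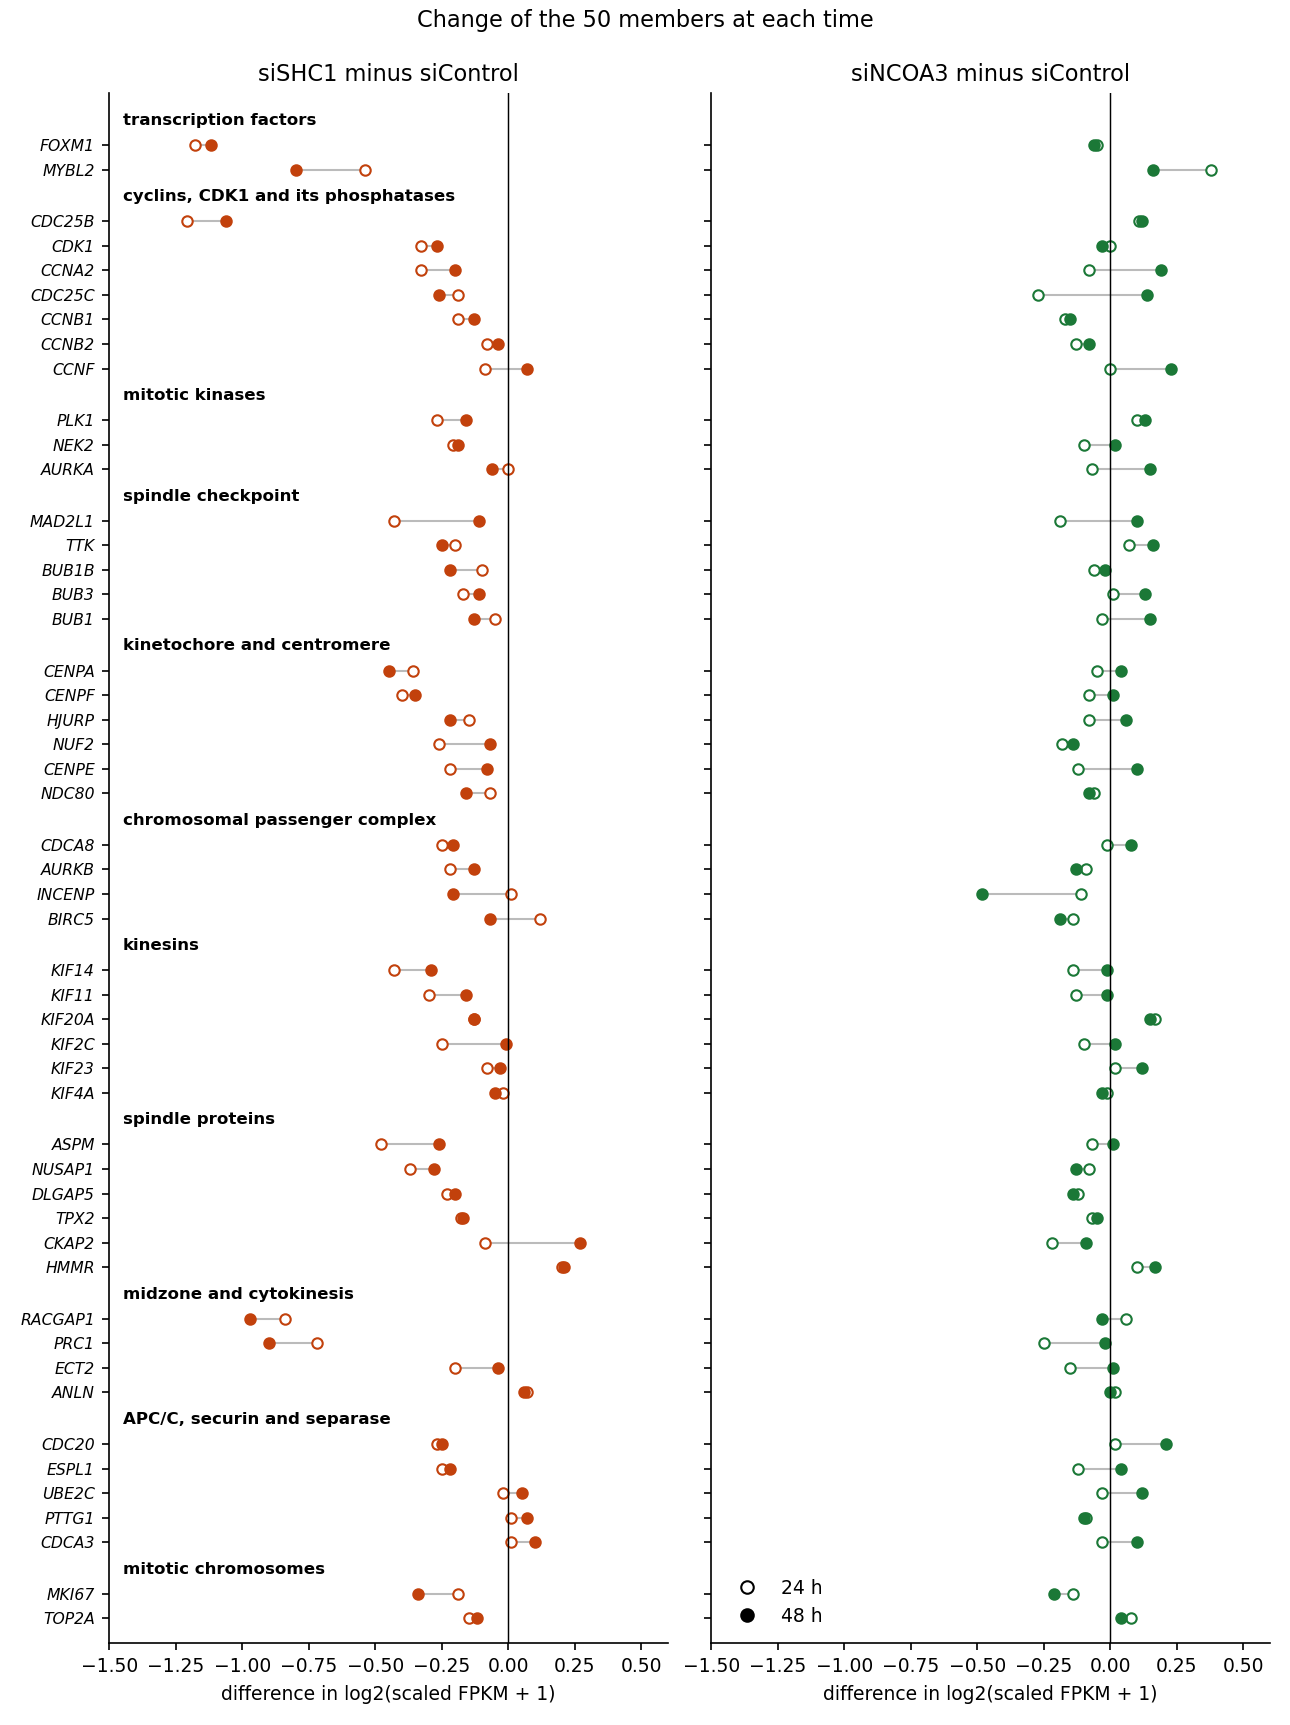
Difference from siControl in log2(scaled FPKM + 1) of each member at 24 h (open circles) and 48 h (filled circles), after siSHC1 (left) and siNCOA3 (right), with members grouped by function. FOXM1, CDC25B, RACGAP1 and PRC1 lie apart from the rest after siSHC1 at both times, MYBL2 at 24 h (-0.54) is near ASPM (-0.48), and after siNCOA3 no member lies further from 0 than INCENP at 48 h (-0.48).

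Members that fell were found both with and without a CHR match in the window. The 34 members with a CHR had a median change of -0.16 after siSHC1 and 2 of them passed, PRC1 and CENPF. The 8 with a window that held neither TTTGAA nor TTTAAA had a median of -0.21, and 2 of them passed, MYBL2 and CDC25B. Over all tested genes, 3.48% of the 1436 with a CHR and 3.15% of the 8043 without one passed as lower, with medians of -0.03 and 0.01. The difference between the classes was not tested.

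A transcript word was also searched for in the members. An siRNA can lower transcripts other than its target that match a short stretch near the 5′ end of its guide strand, as microRNAs do. An earlier analysis of these libraries picked GCCCATC from all 7-base words by the same fold changes after siSHC1, so its link with these falls is no independent support. Whether the word belongs to siSHC1 is not known. GENCODE transcripts on GRCh38 were searched, taking for each gene the one with the longest 3′ UTR. The word was found in all 6 members that passed and in 9 of the other 44. Of the 11396 tested genes with an annotated 3′ UTR, 22.6% held it, and of those that were lower 63.4%. Over these genes the median transcript length was 4266 bases with the word and 3000 without. The word was in the 3′ UTR of PRC1, at 2 sites, and of CDC25B, which has another in its coding sequence. FOXM1, RACGAP1, MYBL2 and CENPF have 1 site each, in the coding sequence. The sites in these 6 members are shown, with that of MAD2L1, whose site also lies in the 3′ UTR, and those of the target SHC1; the word is in capitals, and each stretch is read 5′ to 3′ along the transcript.
CDC25B, coding sequence (chr20:3801980-3802009, plus strand, exon 9): cagcgtgatccgGCCCATCctcaagaggct
CDC25B, 3′ UTR (chr20:3805561-3805590, plus strand, exon 15): gtttgactttacGCCCATCtcaggacactt
PRC1, 3′ UTR (chr15:90966949-90966978, minus strand, exon 15): ttacagttgaaaGCCCATCataggtttagt
PRC1, 3′ UTR (chr15:90966770-90966799, minus strand, exon 15): atgattgactatGCCCATCcctgggggtaa
FOXM1, coding sequence (chr12:2859095-2859124, minus strand, exon 8): taaggaaacgctGCCCATCtcctccacccc
RACGAP1, coding sequence (chr12:49999663-49999692, minus strand, exon 10): caatgatggcggGCCCATCgaagctgtgtc
MYBL2, coding sequence (chr20:43699846-43699875, plus strand, exon 7): gaaggaacaggaGCCCATCggtacagatct
CENPF, coding sequence (chr1:214657091-214657120, plus strand, exon 18): gagacacaagtgGCCCATCtgtgttcacag
MAD2L1, 3′ UTR (chr4:120057555-120057584, minus strand, exon 5): aacagaggttaaGCCCATCaaggtctgaag
SHC1, coding sequence (chr1:154970381-154970410, minus strand, exon 1): ttcatccctgggGCCCATCctgcctcctct
SHC1, coding sequence (chr1:154963846-154963875, minus strand, exon 12): ggacaatcacttGCCCATCatctctgcggg
The members with the word in the 3′ UTR were CDC25B (-1.13), PRC1 (-0.81) and MAD2L1 (-0.27). The 12 with it only before the 3′ UTR had a median of -0.23, and 4 of them passed. The 35 without it had a median of -0.16, and none passed. Over the 11396 tested genes with an annotated 3′ UTR, 15.9% of those with the word there were lower, 5.36% of those with it only before the 3′ UTR and 1.6% of those without it, with medians of -0.12, -0.05 and 0.02. The 8 uncalled members with the word in the coding sequence alone were CDC25C, INCENP, KIF20A, KIF4A, TPX2, NUSAP1, ECT2 and ESPL1, with changes between -0.33 and -0.04. The part of the word in these falls was not tested.

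**Figure D5:**
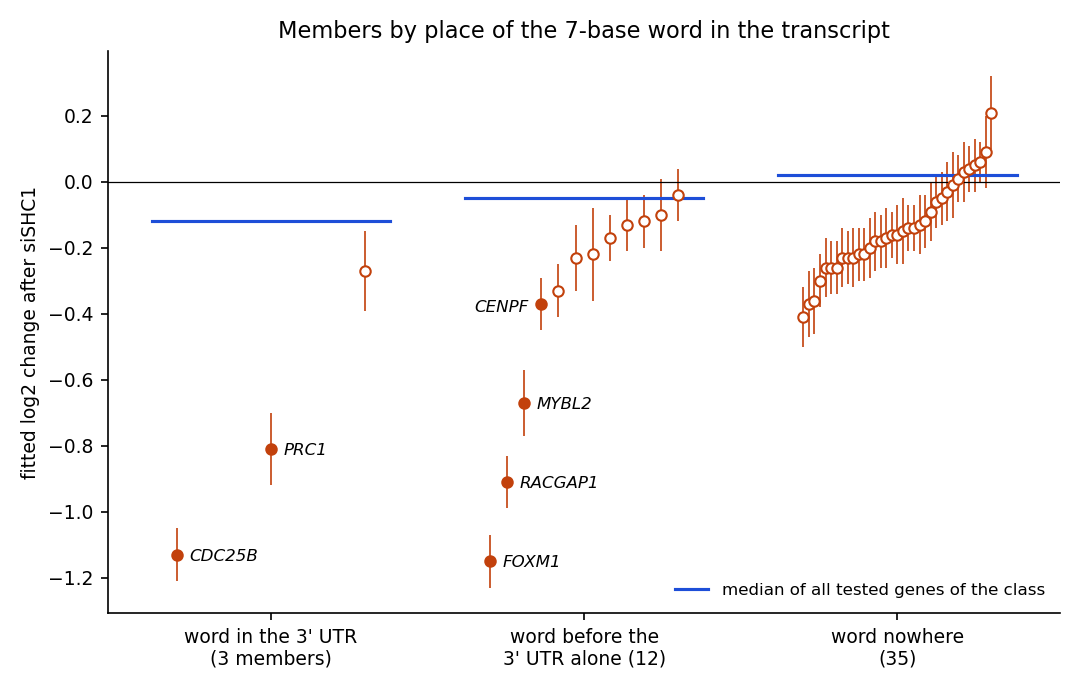
Fitted log2 change after siSHC1 of the 50 members (points, with SE bars), by whether the 7-base word lies in the 3′ UTR, only before it, or nowhere in the transcript; filled points passed the test and blue lines are medians over all tested genes of the class. The 6 members that passed all carry the word, and the 35 without it lie between -0.41 and 0.21. The word had been picked by these same fold changes, so this is no independent support.

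Genes that work with the members were read from 6 further lists. Their calls, some of them close to the threshold, were not rechecked with libraries left out or under other processing. Of 18 tested genes of MuvB, DREAM and the E2F family (of 19 listed), 3 fell after siSHC1 and none rose. E2F8, an E2F-family repressor, went from 12.1 and 10.7 FPKM to 6.85 and 5.39 FPKM (-0.84 ± 0.10, limma adjusted p = 0.00855). E2F4, an E2F of the DREAM complex, went from 26.2 and 26.5 FPKM to 14.9 and 17.1 FPKM (-0.72 ± 0.10, limma adjusted p = 0.0148). E2F5, of the same list, went from 8.04 and 7.41 FPKM to 10.9 and 10.4 FPKM and did not pass (0.39, limma adjusted p = 0.0797). TFDP1, the dimerization partner of E2F factors, went from 71.1 and 73.3 FPKM to 51.2 and 49.7 FPKM (-0.54 ± 0.07, limma adjusted p = 0.0143). Among 18 genes of the mitotic entry switch only the CDK inhibitor CDKN1A (p21) passed. It rose from 41.3 and 46.1 FPKM to 54.5 and 71.1 FPKM (0.47 ± 0.11, limma adjusted p = 0.049), and CDC25A was at the same 0.47 with an adjusted p of 0.127.

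Of 17 APC/C genes, the subunits CDC23 (-0.75) and ANAPC5 (-0.46) fell and UBE2S, the chain-extending enzyme, rose (0.53), with limma adjusted p of 0.0141, 0.028 and 0.0231. Of 34 further kinetochore and centromere genes CENPH alone fell (-0.59, limma adjusted p = 0.0492), and the checkpoint recruiter ZWILCH was at -0.43 (limma adjusted p = 0.0735). Of 26 further spindle and cytokinesis genes FAM83D fell (-0.39) and RHOB, a small GTPase, rose (0.96), with limma adjusted p of 0.0487 and 0.00697, and the kinesin KIF18A was at -0.41 (limma adjusted p = 0.0654). No gene of 18 in condensin and cohesin passed, with NCAPD3 at -0.36 and SMC4 at -0.28. Of the 18, 4 (22.2%) were under an unadjusted p of 0.05, against 26.3% of tested genes. In 9 (50%) both siSHC1 libraries lay below both siControl libraries, where this held for 23.9% of tested genes. In 0 both lay above, where this held for 24.1%. Beside the 3.32% of tested genes that were lower, the share that fell was 16.7% of the MuvB, DREAM and E2F list, 11.8% of the APC/C list, 2.94% and 3.85% of the further kinetochore and spindle lists and 0% of the other 2; these counts were not tested as lists. The medians of these lists lay between -0.10 and 0.03, nearer to 0 than that of the members. Below 0 after siSHC1 were 26 of 34 further kinetochore genes, 20 of 26 further spindle genes and 14 of 18 condensin and cohesin genes. It was 10 of 18 in the MuvB, DREAM and E2F list, 8 of 18 in the mitotic entry list and 8 of 17 in the APC/C list. Over all tested genes 49.3% were below 0. The word GCCCATC, picked by the fold changes after siSHC1, was before the 3′ UTR alone in E2F4, E2F8, ANAPC5 and FAM83D, which fell. It lay there also in RHOB, which rose. It was in the 3′ UTR of UBE2S, which rose, and nowhere in CDC23, TFDP1, CENPH and CDKN1A. Over all tested genes with an annotated 3′ UTR, 15.9% of those with the word there were lower and 1.99% higher. With the word only before the 3′ UTR these shares were 5.36% and 2.36%, and without it 1.6% and 3.39%.

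Setting siNCOA3 against siControl addresses the same for NCOA3, and no member changed by this test. Of all tested genes 0.111% were lower and 0% higher (limma, Benjamini-Hochberg adjusted p under 0.05). At an unadjusted p under 0.05 there were 3 members (6%), against 10.5% of tested genes. FOXM1 stood at 96.6% and 95.9% of siControl (-0.05 ± 0.08). MYBL2 had the highest change of the members, at 132% and 112% of siControl (0.27 ± 0.10, limma adjusted p = 0.413), and INCENP the lowest, with 29.1 and 33.7 FPKM with siControl and 29 and 23.7 FPKM with siNCOA3 (-0.30 ± 0.11, limma adjusted p = 0.413). The median of the members was -0.03, with 31 of 50 below 0, against 50.2% of tested genes. Without scaling only 19 of 50 were below 0, so the direction of the set changed with the scaling. Both siNCOA3 libraries lay below both siControl libraries in 9 members (18%), where this held for 19.3% of tested genes, and above in 7 (14%), where it held for 20.1%.

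By function after siNCOA3, the chromosomal passenger complex lay lowest, with INCENP at -0.30, BIRC5 at -0.16, AURKB at -0.11 and CDCA8 at 0.03, and MKI67 was at -0.18 with both libraries below siControl. The cyclins, CDK1 and its phosphatases ran from CCNB1 at -0.16 to CCNF at 0.12, the kinases from NEK2 at -0.04 to PLK1 at 0.12, and the checkpoint genes from MAD2L1 at -0.05 to TTK, the kinase MPS1, at 0.11. Kinetochore genes ran from NUF2 at -0.16 to CENPA at 0.00, kinesins from KIF14 at -0.07 to KIF20A at 0.16, and spindle proteins from CKAP2 at -0.15 to HMMR at 0.13. PRC1 was at -0.14 and RACGAP1 at 0.01, and the members grouped around the APC/C ran from PTTG1 at -0.10 to CDC20 at 0.11. No gene of the 6 further lists passed after siNCOA3 (limma), and 0 to 3 genes of each list were under an unadjusted p of 0.05. The lowest there were CIT, the citron kinase of cytokinesis, at -0.69 and the E2F-family repressor E2F7 at -0.56.

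A direct comparison of the 2 knockdowns gives fitted changes that do not rest on the siControl levels. Its p-values do use a spread that includes the siControl libraries, and it shares the siSHC1 libraries with the comparison above. Relative to siNCOA3, 9 of 50 members were lower with siSHC1 (18%) and none higher, where 4.4% of tested genes were lower and 5.35% higher (limma adjusted p under 0.05). CDC25B was at -1.25, FOXM1 at -1.09, MYBL2 at -0.94, RACGAP1 at -0.92 and PRC1 at -0.67, with limma adjusted p between 0.00136 and 0.0155. The other 4 were CENPA at -0.40, CDC20 at -0.37, CENPF at -0.34 and PLK1 at -0.33, with limma adjusted p of 0.0421, 0.0365, 0.046 and 0.0464. Of these, CDC20 passed in 11 of 17 other settings of the processing, and CENPA, CENPF and PLK1 in 6 each. CDC20 had 97.3 and 102 FPKM with siNCOA3 against 78.5 and 73.7 FPKM with siSHC1, and PLK1 58.2 and 59.3 FPKM against 44.2 and 47.9 FPKM. For CDC20 and PLK1 siControl lay between the 2 knockdowns. The members' median was -0.15, with 41 of 50 below 0, against 49.4% of tested genes. The highest member was CKAP2, a spindle-associated protein, at 0.24. In the further lists, 3 genes passed in this comparison that had not passed against siControl. E2F7 was higher with siSHC1 (48.1 and 31.7 FPKM, against 23.7 and 19.9 FPKM with siNCOA3; 0.83, limma adjusted p = 0.0123), E2F2, an activating E2F, was lower (-0.70, limma adjusted p = 0.032), and so was CDKN3, a phosphatase that acts on cyclin-dependent kinases (-0.40, limma adjusted p = 0.0444). Without the siSHC1 library of 24 h 5 members passed. Without the siSHC1 or the siNCOA3 library of 48 h only CDC25B, FOXM1, MYBL2 and RACGAP1 passed. Without the siNCOA3 library of 24 h or either siControl library 6 passed.

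Between 24 h and 48 h no member changed by this test (limma, Benjamini-Hochberg adjusted p under 0.05), where 0.00855% of tested genes were lower and 0.0171% higher. At an unadjusted p under 0.05 there were 6 members (12%), against 14.2% of tested genes. The lowest was MAD2L1, with 10.4, 9.72 and 7.98 FPKM at 24 h and 7.6, 8.15 and 6.86 FPKM at 48 h for siControl, siNCOA3 and siSHC1 (-0.29 ± 0.10, limma adjusted p = 0.300), and it was lower at 48 h with each siRNA. TOP2A was at -0.25, CCNA2 at -0.23 and KIF11, the motor that separates spindle poles, at -0.22. BIRC5, RACGAP1 and NEK2 were the highest, each at 0.15, and FOXM1 was at 0.10 and MYBL2 at -0.10. The members' median was -0.07, against 0.01 for all tested genes. Below 0 were 33 of 50 members, against 47.8% of tested genes.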

How the data were processed

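RNA from 6 MDA-MB-231 libraries was analysed. Per the labels' protocols, a stranded mRNA kit was used on Trizol-extracted RNA. STAR, Cufflinks and DESeq2 and the build hg19 are named, with no roles or versions, per the submitters' processing notes; the sources used here give neither the annotation nor any use of strand in counting, so that overlapping antisense genes may share reads. The values the authors deposited are FPKM, although the table is named for read counts: they are not whole. Counts and depth are unknown, so no counting intervals are given, and the number of libraries limits the precision.

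FPKM were scaled by the median of ratios over 11042 genes with at least 1 FPKM in all 6 libraries (factors 0.947 to 1.02). Genes with at least 1 scaled FPKM in at least 2 libraries (11690) were tested on log2(scaled FPKM + 1), a scale that understates changes of low genes, with limma 3.58.1 in R 4.3.3 (lmFit and eBayes, moderated with a trend and robustly) on siRNA plus time. Benjamini-Hochberg adjustment was done per comparison, with a threshold of 0.05. The test was tried on simulated data. Alternatives were other scalings, filters, pseudocounts, moderations and models, and leaving out each library. Promoters came from RefSeq (GRCh38.p14) for 42 members. Transcripts came from GENCODE (GRCh38) for all 50, with a 3′ UTR of at least 30 bases in 97.5% of tested genes. Python 3.11.15 with pandas 2.3.3 and matplotlib 3.10.9 was used for matching and plots. Printed coordinates are on GRCh38, not the authors' build.

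The members and lists were chosen with earlier results of these data known. Named are the targets, FOXM1, MYBL2, every member that passed in any comparison, the lowest and highest of each functional group, the highest and lowest levels, and from each further list the genes that passed and the 2 with the largest changes after siSHC1; other genes were named after their values were seen. Of the marker genes, PECAM1 was not analysed here.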

Additional observations from a re-analysis of the deposited data

Results flagged for a closer look

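CDC25C, the CDK1-activating phosphatase, lay on opposite sides of siControl at the 2 times after siNCOA3: its difference in log2(scaled FPKM + 1) was -0.27 at 24 h and 0.14 at 48 h. MAD2L1, the checkpoint protein, did the same, at -0.19 and 0.10. Such opposite signs were common: 19 of 50 members and 5102 of the 11690 tested genes had them after siNCOA3. Each time has 1 library of each siRNA, so neither difference between the times was tested. Both genes are among the 4 members with a mean under 10 FPKM with siControl.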

How the results depend on the processing

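FOXM1, CDC25B and RACGAP1 passed as lower after siSHC1 in 16 of 17 settings, PRC1 in 14, MYBL2 in 13 and CENPF in 6. With no filter on low values no member passed against siControl or siNCOA3 (0 in each comparison). The limma adjusted p for FOXM1 went up to 0.0793 and 0.0507. Of the 16511 genes then tested, 2 were lower and 0 higher against siControl, and 2 lower and 2 higher against siNCOA3. The cause was not tested. Leaving out 1 library gave 3 to 5 lower members against siControl, with a median of -0.21 to -0.16, and 4 to 6 against siNCOA3. The siSHC1 median against siControl was -0.14 without scaling and -0.24 with equal library totals. Equal totals also added CDK1, CENPA and NUSAP1 to the members lower against siControl, 9 in all, and moved the split of all tested genes from 388 lower and 363 higher to 497 and 209; against siNCOA3 it moved from 514 and 625 to 647 and 510. Against siNCOA3, 5 members passed without the variance trend, 5 with no term for time and 6 with only the 2 siRNAs compared. No member passed after siNCOA3 or over time in any setting run. Time was a term of the model and stands in for the replicate: leaving it out gave 5 lower members against siControl. A setting with only the 2 siRNAs compared does not apply to time. With 2 residual degrees of freedom, small changes such as the members' median are not resolved gene by gene.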

Other observations

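Over time the further kinetochore and centromere genes, which are no members, lay lower at 48 h. Of these, 33 of 34 had a fitted change below 0, against 47.8% of tested genes. Their median was -0.18, against -0.07 for the members and 0.01 for all tested genes. None passed the test (limma, Benjamini-Hochberg adjusted p under 0.05), and 14 (41.2%) were under an unadjusted p of 0.05, against 14.2% of tested genes. SKA3, a subunit of the complex that couples kinetochores to microtubules, had 13.0, 12.4 and 9.63 FPKM at 24 h and 9.31, 10.1 and 6.97 FPKM at 48 h for siControl, siNCOA3 and siSHC1 (-0.40 ± 0.09, limma adjusted p = 0.281). KNTC1, a subunit of the checkpoint complex RZZ, was at -0.34 and CENPK, an inner kinetochore subunit, at -0.32. Condensin and cohesin genes had 15 of 18 below 0, with a median of -0.13 and none passing.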
